A study of Homo sapiens with 12 samples.

Results

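A set of 6179 genomic regions carried a called peak of the histone mark H3K4me2 in both lists from cells given Corin, with or without all-trans retinoic acid (ATRA), and no peak in the lists from cells given the vehicle DMSO or ATRA alone. They were found by merging all overlapping or touching peaks of the 4 lists into 84577 regions and keeping those with a Corin and an ATRA+Corin peak and no DMSO or ATRA peak. These members make up 7.31% of all merged regions. The members were chosen by the called peaks of the 4 lists, so their presence or absence in a list is a description and is not tested.

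H3K4me2 was mapped with ChIP-seq (immunoprecipitation of chromatin, then sequencing of both fragment ends) in U-937, an established human monocytic line described in the labels as acute myeloid leukaemia (AML) cells. The cells received DMSO, ATRA at 0.1 µM, Corin at 0.1 µM, or ATRA and Corin at 0.1 µM each, and all groups were collected after 24 h. Each treatment had 2 H3K4me2 libraries and 1 input, 12 libraries in total. All groups come from 1 cell line, and the labels do not say whether the 2 libraries of a treatment came from separate cultures. Each treatment has 1 deposited peak list made over its libraries, so the spread between replicates is unknown and no p-value between treatments can be given. Intervals are 95% Wilson intervals over regions or genes and account for counting error alone.

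Peak numbers were 65172 (DMSO), 66385 (ATRA), 73997 (Corin) and 83969 (ATRA+Corin). The background of the H3K4me2 libraries, recovered from the deposited values, was 1.02 (ATRA), 1.10 (Corin) and 1.20 (ATRA+Corin) times that of DMSO, so both lists that define the members come from the deeper libraries. After fragments were thinned to equal depth, 5252 regions met the rule at a recomputed −log10 p of at least 5, against 5786 at full depth. Of 8 myeloid marker genes, 7 had a DMSO peak within 1 kb of the start site, the exception being MPO. The same held for 3 of 7 lymphoid and 2 of 5 erythroid and megakaryocyte markers.

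H3K4me2 lies at promoters and enhancers. LSD1, encoded by KDM1A, removes methyl groups from H3K4 and works in the CoREST complex with the histone deacetylases HDAC1 and HDAC2. Corin is a synthetic compound that inhibits both LSD1 and the deacetylases of this complex. DNA-binding repressors bring LSD1 and CoREST to their sites, among them GFI1 in blood cells and REST at neuronal genes. PU.1, C/EBP factors, RUNX1 and AP-1 (FOS and JUN family dimers) bind enhancers of monocytes and macrophages, and ATRA acts through retinoic acid receptors.

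Below are summit windows of 3 of the 20 strongest members, shown as examples because each holds matches to 2 of the motifs marked; the window at RNF111 also does and is not printed. Each is the 300 bases around the Corin summit, plus strand of GRCh38, and capitals mark matches to GFI1, AP-1, C/EBP, PU.1 and RUNX motifs on either strand; other motifs are not marked. The PIGT window (chr20:45453249-45453548) holds 1 AP-1 and 2 C/EBP matches. The chromosome 22 window (chr22:27113423-27113722) holds a GFI1 match beside a PU.1 match. The window near KCNK17 (chr6:39280337-39280636) has an AP-1 match that overlaps a RUNX match.
PIGT: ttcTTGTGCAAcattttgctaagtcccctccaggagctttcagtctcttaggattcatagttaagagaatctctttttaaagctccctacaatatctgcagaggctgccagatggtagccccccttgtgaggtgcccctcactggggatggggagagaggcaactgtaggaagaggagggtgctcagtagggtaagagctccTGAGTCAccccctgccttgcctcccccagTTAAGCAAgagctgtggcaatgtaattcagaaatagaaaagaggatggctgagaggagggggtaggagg
Chromosome 22: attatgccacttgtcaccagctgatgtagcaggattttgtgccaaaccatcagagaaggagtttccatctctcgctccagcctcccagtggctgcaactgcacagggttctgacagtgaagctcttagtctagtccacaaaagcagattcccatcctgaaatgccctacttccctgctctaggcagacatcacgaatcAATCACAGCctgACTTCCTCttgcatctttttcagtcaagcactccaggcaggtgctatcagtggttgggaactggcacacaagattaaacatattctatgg
KCNK17: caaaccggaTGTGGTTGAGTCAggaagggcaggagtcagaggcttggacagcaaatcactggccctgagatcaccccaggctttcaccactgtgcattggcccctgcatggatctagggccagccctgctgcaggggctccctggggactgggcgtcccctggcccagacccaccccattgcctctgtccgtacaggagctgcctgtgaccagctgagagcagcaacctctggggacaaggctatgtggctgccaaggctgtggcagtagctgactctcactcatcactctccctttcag

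The next sequences show GFI1 matches, AATCACNGC in capitals with 20 flanking bases on each side, in 2 strong members over 2.5 kb from a start site. They are named by the nearest protein-coding start site and written in the direction of the motif. The MEAK7 site lies at chr16:84511409-84511457 and the MPHOSPH6 site at chr16:82331280-82331328 (minus strand).
MEAK7: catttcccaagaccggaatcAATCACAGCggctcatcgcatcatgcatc
MPHOSPH6: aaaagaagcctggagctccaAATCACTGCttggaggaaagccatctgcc

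Most members were weak peaks, and a few were stronger than most regions marked under every treatment. Fold enrichment over input, −log10 p and −log10 q are the authors' values for each peak, and the strongest peak stands for a region. With Corin the members' −log10 q ran from 0.541 to 100.4 with a median of 4.68, compared with a median of 28.4 for the 43264 regions found in all lists. With ATRA+Corin it ran from 0.592 to 185 with a median of 5.81, compared with 40.1. The median member thus sat at percentile 21.2 of the −log10 q of the Corin list and at percentile 28.8 of the ATRA+Corin list.

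In recovered fragments the median member summit held 22 H3K4me2 fragments over a background of 3.61 in the Corin list. The median was 27 fragments over 4.02 in the ATRA+Corin list. Regions of all lists held a median of 62 and 86 fragments at their summits. The median fold enrichment of members was 4.02 with Corin and 4.45 in the ATRA+Corin list.

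**Figure D1:**
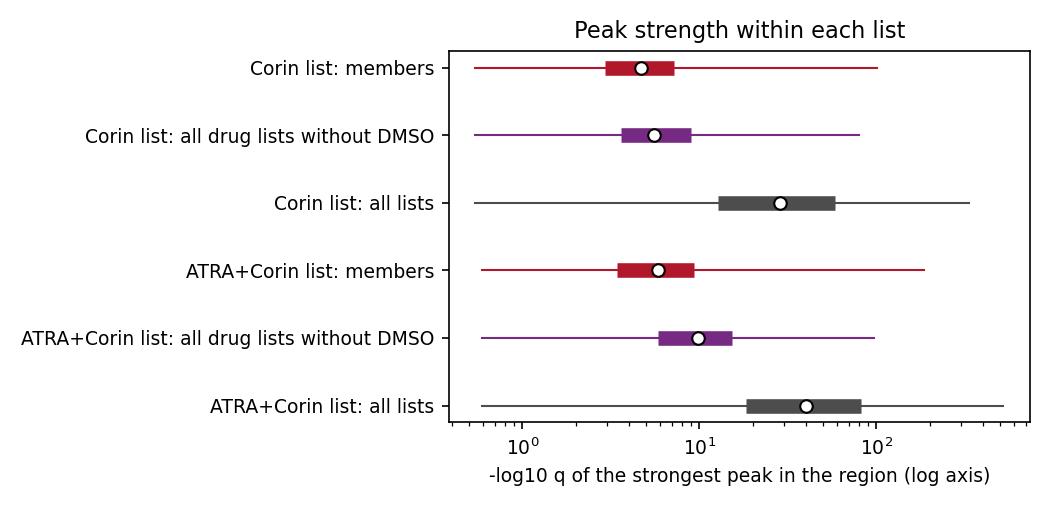
The −log10 q of the strongest peak in a region (log axis), for members, regions of all drug lists without DMSO, and regions of all lists, within each of both lists from cells given Corin. Circles are medians, thick bars the middle 50% and thin lines the full range; the members' medians, 4.68 and 5.81, lie below those of regions of all lists, 28.4 and 40.1.

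Both lists gave 1899 members a −log10 q of 5 or more (30.7%), compared with 91.8% of the regions of all lists. Across members the −log10 q of both lists had a Spearman rho of 0.370 (6179 regions, which are not replicates). The summits of both lists lay within 150 bp of each other in 73.3% of members, against 72.7% of the regions of all lists. Members were short: the median region was 602 bp long, compared with 1818 bp for regions of all lists, and 90.9% of members consisted of 1 peak of each list. Together they covered 4.32 Mb.

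The edge of the rule is soft, because a weak peak is enough to place a region outside. The smallest gap from a member to a DMSO or ATRA peak was 1 bp, and 299 members lay within 100 bp of one. Just outside the rule, 1605 regions held peaks of both Corin lists and of DMSO but not of ATRA; their lowest DMSO −log10 q was 0.427 and their median was 3.56. A further 4144 regions held peaks of all 3 drug lists but not of DMSO, with a lowest ATRA −log10 q of 0.490 and a median of 5.65.

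The strongest member covered the start site of PI16, a secreted peptidase inhibitor family protein (chr6:36953445-36957841). Its fold enrichment was 21.0 with Corin and 32.9 in the ATRA+Corin list, with 153 and 273 fragments against backgrounds of 5.85 and 6.60. The region was 4397 bp long, the longest of all members, and the nearest DMSO or ATRA peak was 4.96 kb away. Next came a region over an exon of CTCFL, the testis-expressed relative of CTCF (chr20:57502566-57503822). Its fold enrichment was 27.3 in the Corin list, the highest of all members, and 18.5 in the ATRA+Corin list. An intronic region of PPARD, a nuclear receptor for fatty acids, ranked 4 (chr6:35347518-35349360), its −log10 q being 50.0 with Corin and 92.7 with the combination. It lay 5.90 kb downstream of the start site and 539 bp from the nearest DMSO or ATRA peak.

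Over the 20 strongest members, −log10 q in the Corin list ran from 30.2 (near KCNK17) to 100.4 (PI16). The other 17, by gene or nearest gene, were at CRTC3, PIGT, MAP3K20, RNF111, ZNF436, CRYBA4, NCR1, WFS1, RBP7, GARRE1, SBNO2, LIPM, SHQ1, NEDD4L, RIN3, GPAM and KCNK17. The chromosome 22 member whose sequence is given above was 492 kb from its nearest protein-coding start site, CRYBA4, and had 71 and 96 fragments over backgrounds of 3.20 and 3.49. A region in SBNO2, a transcriptional co-regulator, over an intron of that gene and an exon of a lncRNA, had the widest gap in fold between the lists of these 20 members, at 10.8 with Corin and 29.0 with ATRA+Corin.

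Members lay away from promoters. Within 1 kb of an annotated start site were 333 members, or 5.39% (4.85 to 5.98%), compared with 37.9% of the regions of all lists (37.5 to 38.4%). Of the members, 63.9% lay elsewhere in a gene body and 30.7% outside genes, and 9.92% overlapped an exon. Most of this contrast went with peak strength: among regions with a Corin −log10 q from 3 to 7, a band chosen after the values were seen, 4.84% of members (4.12 to 5.67%) and 8.81% of the regions of all lists (7.96 to 9.73%) were within 1 kb of a start site. The regions of all drug lists without DMSO had 5.58% in that band (4.62 to 6.73%), and at any strength those of the ATRA+Corin list only had 4.51%, those of the ATRA and ATRA+Corin lists only 5.11%.

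Between 1 and 5 kb downstream of start sites, the share of members was above that of both sets with ATRA peaks and no DMSO peak. It was below that of regions of all lists, but this order changed with distance. At 1 to 2 kb downstream, members had 0.761% and regions of all lists 6.27%. At 2 to 5 kb, members had 7.17% (6.55 to 7.84%) and regions of all lists 2.74% (2.59 to 2.90%). From 1 to 5 kb downstream of the nearest protein-coding start site lay 7.93% of members (7.28 to 8.63%), and the same distance upstream lay 5.47% (4.93 to 6.07%). For regions of the ATRA and ATRA+Corin lists only, the shares were 3.53% (2.93 to 4.25%) and 3.46% (2.87 to 4.17%). For regions of all drug lists without DMSO they were 3.6% (3.07 to 4.21%) and 3.69% (3.16 to 4.31%). In both of these sets the upstream and downstream shares lay within each other's intervals, and their downstream intervals do not reach the members' share; the asymmetry itself was not tested. A higher share downstream than upstream is not particular to members: regions of the ATRA+Corin list only had 9.48% and 5.56%. Regions of all lists had 9% and 4.67% from 1 to 5 kb. From 2 to 5 kb alone, however, they had 2.74% on each side. In that narrower zone members had 7.17% downstream and 4.37% upstream, and regions of the ATRA+Corin list only 8.55% and 4.39%. These patterns share the ATRA+Corin list, or the Corin list as well.

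Of the 490 members in that downstream zone, 87.1% (83.9 to 89.8%) belonged to a start site that had a DMSO peak within 1 kb. Over all members the nearest start site had one in 71.6% (70.5 to 72.8%), and over all protein-coding genes 61.3% did. For the 107 downstream regions of the ATRA and ATRA+Corin lists only, the share was 62.6% (53.2 to 71.2%). It was 67.8% for those of all drug lists without DMSO, 89.3% for those of the ATRA+Corin list only and 89.8% for those of all lists, so the members' share was near those of the last 2 sets. The downstream members stood mostly inside genes whose promoter was already marked in vehicle-treated cells. The median member lay 27.4 kb from the nearest protein-coding start site.

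**Figure D2:**
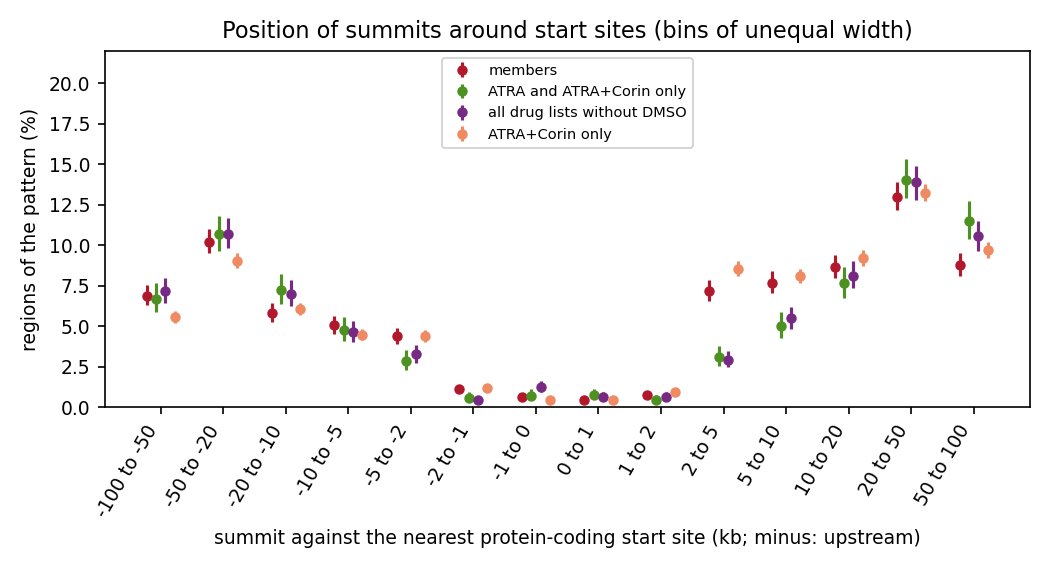
Share of regions (%) whose summit falls in each distance bin around the nearest protein-coding start site (kb, minus is upstream; bins of unequal width), with 95% Wilson intervals. Members reach 7.17% from 2 to 5 kb downstream, above the regions of the ATRA and ATRA+Corin lists only and of all drug lists without DMSO and below those of the ATRA+Corin list only. Regions of all lists, not drawn, had 2.74% in this bin.

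Only 35 members covered the canonical start site of a protein-coding gene, and 12 of these reached a −log10 q of 5 with both treatments. After PI16 the strongest were SLAMF7, a receptor of the SLAM family on leukocytes (−log10 q 21.6 with Corin and 27.4 with ATRA+Corin), and VNN2, a pantetheinase of leukocytes (13.1 and 33.4). CXCR1, a neutrophil receptor for the chemokine CXCL8, had 9.13 and 15. CD300E, an activating receptor of monocytes, had 6.54 and 25.7, and S100A3, a calcium-binding protein, had 11.4 and 17.4. A further 3 of the 10 strongest were UNC5CL (11.1 and 15), PMFBP1 (12.8 and 11) and APELA, a peptide ligand of the apelin receptor (8.97 and 6.66). HLA-DRB5 was among them too (12.8 and 15.4), but reads from this gene are hard to tell from those of its near-identical paralogs. Naming the 10 strongest was decided after their values were seen.

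Many members bordered chromatin that was already marked. A DMSO or ATRA region lay within 1 kb of 32.2% of members (31.0 to 33.3%) and within 10 kb of 69.7%, with a median gap of 3.38 kb. A DMSO region lay within 1 kb of 28.4% of members (27.2 to 29.5%), of 19.2% of the regions of the ATRA and ATRA+Corin lists only (17.8 to 20.6%), and of 22.6% of those of all drug lists without DMSO (21.4 to 23.9%). Of the regions of the ATRA+Corin list only it was 32.8%, and 30.1% of the regions of all lists had another DMSO region that close, so bordering marked chromatin is not particular to members. Another member lay within 5 kb of 16.3% of members, against 9.07% for the regions of the ATRA and ATRA+Corin lists only and 7.75% for those of all drug lists without DMSO, each for their own kind. The shares were higher, 30.1 and 50.5%, for regions of the ATRA+Corin list only and of all lists. Sets of more regions lie closer by number alone, and these 4 sets hold 3033, 4144, 13794 and 43264 regions.

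Joined at gaps of up to 10 kb, 1349 members (21.8%) formed 609 runs of at least 2. There were 95 runs of at least 3 and 25 of at least 4, and the largest held 7. Runs of 7 lay in ELF1, an ETS-family transcription factor of blood cells (16.8 kb), and in MBNL1, an RNA-binding splicing regulator (22.1 kb). Runs of 5 lay at FCHSD2, TAOK3, PXK, TRIM59 and VNN2. Runs of 4 included SCD, the stearoyl-CoA desaturase, and FNDC3B, which held 2 such runs. By chromosome, members made up 5.66% (chromosome 21) to 9.13% (chromosome 13) of the regions.

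The sequence at the summits was compared next. The 300 bases around the Corin summit of members held 45.6% G and C, compared with 52.6% for regions of all lists and 45.3% for regions of all drug lists without DMSO. Of 17 motifs searched on both strands, GFI1 and AP-1 are described in full, a choice made after the shares were seen. Their shares in members were above those in regions of all lists, and their intervals overlapped those of regions of the Corin list only. The shares of the IRF, C/EBP, PU.1, RUNX and GATA motifs in members were above those in regions of all lists too. IRF matches, AANNGAAA, were in 36.8% of members and 26.8% of the regions of all lists, and GATA matches, AGATAAG, in 3.85 and 2.76%. In regions of the ATRA and ATRA+Corin lists only the shares were 36.3 and 4.71%. A match is a description of letters and no evidence of binding.

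GFI1 matches, AATCACNGC, were found in 1.86% of member windows (115 of 6179, 1.55 to 2.23%). In regions of all lists the share was 0.929% (0.843 to 1.02%), and in all regions with a Corin peak it was 1.10%. The share was 0.725% (0.480 to 1.10%) in regions of the ATRA and ATRA+Corin lists only, 1.18% (0.896 to 1.56%) in those of all drug lists without DMSO and 1.30% (1.13 to 1.51%) in those of the ATRA+Corin list only. Regions of the Corin list only had 1.71% (1.36 to 2.16%). The members' interval lay above those of all lists, of the ATRA and ATRA+Corin lists and of ATRA+Corin only, and overlapped those of all drug lists and of Corin only.

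Within the −log10 q band of 3 to 7 and over 2.5 kb from a start site, the GFI1 share was 2.04% (1.56 to 2.66%) in members, 1.99% (1.40 to 2.81%) in regions of Corin only, 1.03% (0.644 to 1.64%) in those of all drug lists and 0.885% (0.620 to 1.26%) in those of all lists. Some Alu repeats carry the same letters followed by TCACTGC. In 24 member windows every GFI1 match had that continuation, and without them the share was 1.47% (1.20 to 1.80%), against 0.821% (0.740 to 0.910%) in regions of all lists. Without them the share was 0.528% in regions of the ATRA and ATRA+Corin lists only, 1.51% in those of the Corin list only and 1.12% in those of the ATRA+Corin list only (0.954 to 1.31%), whose interval then overlapped that of the members. Around member summits over 2.5 kb from a start site, 1.22 and 1.28% had a match in the 200-bp bins on either side of the summit. From 200 to 400 bp away the shares were 0.995 and 1.24%, and in the bins from 600 to 1000 bp away 0.714 to 0.789%. All bins beyond 400 bp ran from 0.488 to 0.902%. The intervals of both bins beside the summit overlapped that of the highest of these, 0.681 to 1.19%.

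AP-1 matches, TGANTCA, were found in 13% of member windows (12.2 to 13.9%). Regions of all lists had 8.29% (8.03 to 8.55%), those of all drug lists without DMSO 10.7% (9.83 to 11.7%), those of the ATRA and ATRA+Corin lists only 9.50% (8.50 to 10.6%) and those of the Corin list only 13.6% (12.6 to 14.7%). In the band from 3 to 7 away from start sites, members had 13.8% (12.6 to 15.2%) and regions of all lists 11.3% (10.3 to 12.4%), so the gap was smaller and the intervals did not overlap. Leaving out regions near start sites accounted for part of this, with 13.3% and 10% over 2.5 kb from a start site at any strength. Regions of the Corin list only had 14.7% in the band. PU.1 matches, GAGGAAGT, were in 4.26% of members (3.78 to 4.79%) and 6.10% of the regions of the ATRA and ATRA+Corin lists only (5.30 to 7.01%). The members' share was near the 4.17% of regions of all drug lists without DMSO (3.61 to 4.83%). It was above the 2.95% of regions of all lists (2.80 to 3.12%) and the 1.99% of those of the Corin list only (1.60 to 2.46%).

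**Figure D3:**
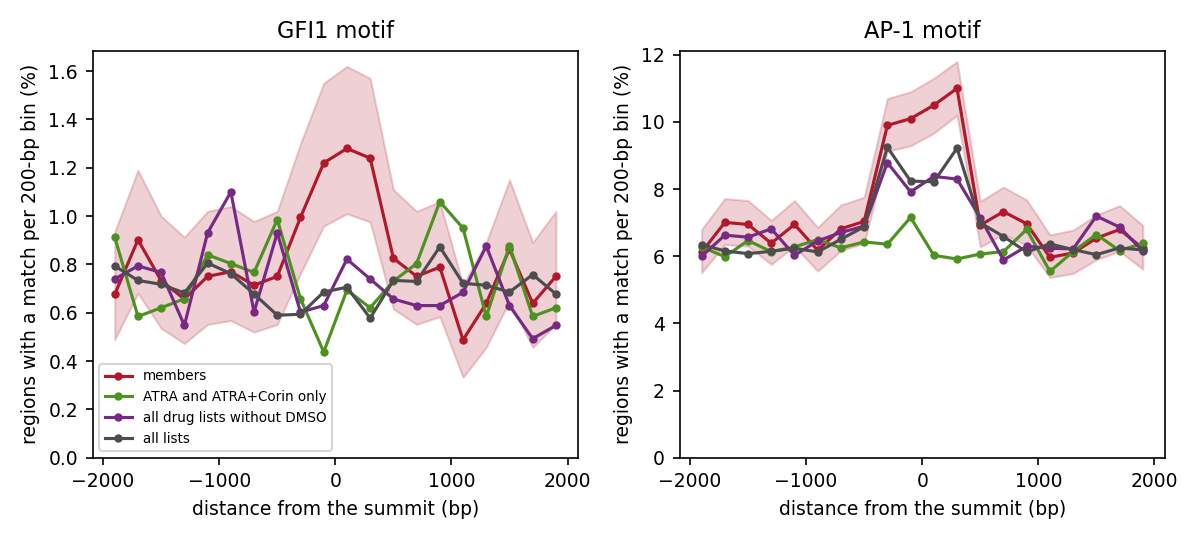
Share of regions over 2.5 kb from a start site (%) with a GFI1 (left) or AP-1 (right) match in each 200-bp bin around the summit, for members (shaded 95% Wilson interval) and 3 other patterns. GFI1 matches in members reach 1.28% (1.01 to 1.62%) beside the summit and 1.24% from 200 to 400 bp away. In regions of all lists no such rise is seen.

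The C/EBP motif TTGCNNAA was in 17.6% of member windows, against 18.1% of the regions of the ATRA and ATRA+Corin lists only and 13.4% of those of all lists. The RUNX motif TGTGGTT was in 7.49%, against 6.43% and 5.86%. The REST motif fragment CAGCACC was in 5.55% of members and 8.15% of the regions of all lists, which are richer in G and C. A direct repeat bound by retinoic acid receptors was in 0.178% of members, 0.198% of the regions of the ATRA and ATRA+Corin lists only and 0.146% of those of all lists; at counts of 11, 6 and 63 windows no difference was detectable.

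Of 19959 protein-coding genes, 5693 had at least 1 member within 50 kb of the canonical start site (28.5%) and 435 had at least 3 (2.18%). The share grew with the number of DMSO regions in the same window, from 5.44% of genes with 0 DMSO regions to 44.7% of those with 10 or more. Gene counts therefore have to be read beside that number.

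The genes with the most members were ELF1 (10), MBNL1 (9), the secreted phospholipases PLA2G2D (8) and PLA2G2F (7), and then VNN1, C15orf39, HTD2, RPP14, PLA2G5 and PXK with 6 each. Neighbours share regions: PLA2G2D, PLA2G2F and PLA2G5 are counted over 1 cluster of members, and so are HTD2, RPP14 and PXK. In its window ELF1 had 10 regions with DMSO, 10 with ATRA, 25 with Corin and 22 with ATRA+Corin, and MBNL1 had 5, 6, 18 and 21. All 10 members near ELF1 had a −log10 q under 5 in at least 1 list. Near MBNL1 the strongest member, 6.62 kb downstream of the start site, had 33 fragments over 4.07 with Corin and 35 over 3.49 in the ATRA+Corin list.

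VNN1 encodes vanin 1, a pantetheinase anchored at the cell surface, and it differs from the other genes with many members in that its surroundings were almost unmarked in DMSO. Its window held 1 region of the DMSO list, 2 of ATRA, 8 of Corin and 10 of ATRA+Corin. The member 44 kb downstream of its start site had 59 fragments over a background of 3.97 with Corin and 110 over 10.4 in the ATRA+Corin list. The other 5 lay 20.8 to 44.2 kb upstream, over and beside VNN2. Of these, the one at 28.8 kb had 41 and 63 fragments, the one at 35.4 kb had 51 and 80, and the one over the VNN2 start site had 34 and 74.

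**Figure D4:**
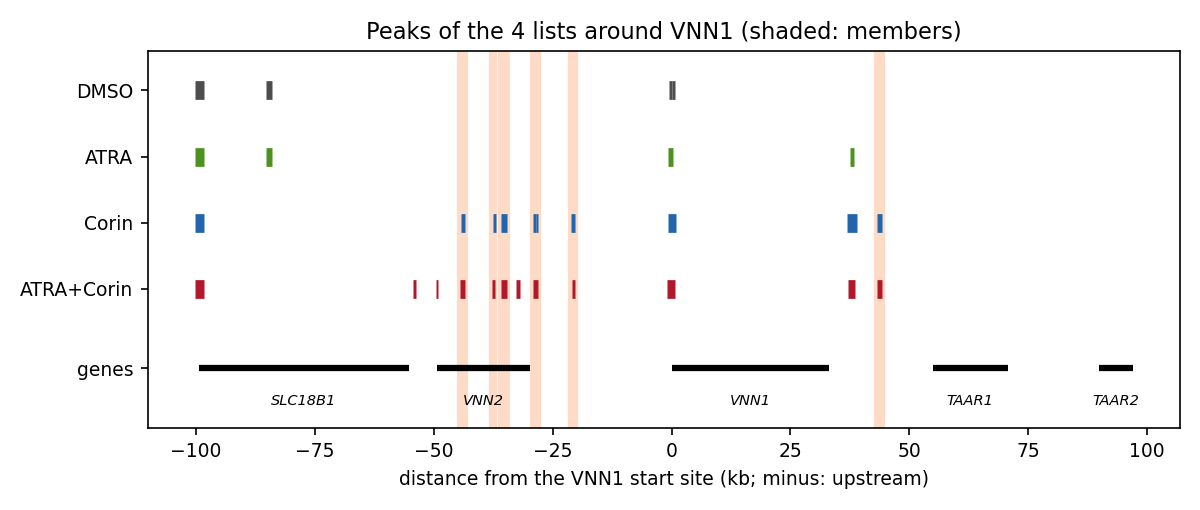
Peaks of the 4 lists within 100 kb of the VNN1 start site (kb, minus is upstream), with genes below; shading marks the 6 members. The DMSO list has peaks at the VNN1 start site and at SLC18B1 and none over VNN2, whereas the Corin and ATRA+Corin lists have peaks across VNN2.

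Among the monocyte and macrophage genes, 10 of 20 had a member within 50 kb (50.0%, 29.9 to 70.1%), beside 28.5% of all genes. They held a median of 6 DMSO regions, and of all genes with 6 to 9 DMSO regions 40.1% had a member. CD163, the haemoglobin scavenger receptor of macrophages, had 3 members and 0 DMSO regions. The summit of the nearest lay 0.127 kb downstream of its start site, with a fold enrichment of 2.88 with Corin and 5.68 with ATRA+Corin. C5AR1, the receptor for complement C5a, had 3 members 13.4 to 15.9 kb upstream, the strongest with a Corin −log10 q of 14.9. ITGAX, the integrin CD11c, also had 3, but weak ones. Their −log10 q ran from 1.95 to 3.04 with Corin and from 0.622 to 9.23 with ATRA+Corin.

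LYZ (lysozyme) had 2 members, 23.4 and 27.0 kb upstream, with folds of 4.14 and 3.72 with Corin and 6.45 for both in the ATRA+Corin list. CD86, a costimulatory ligand, had 2, 8.43 and 30.7 kb downstream, with folds of 3.26 and 2.87 with Corin and 5.87 and 3.00 in the ATRA+Corin list. ITGAM, the integrin CD11b, had 0 members. Of the remaining genes of the list, FPR1 had 2, and CD14, FCGR1A, TLR2 and CD33 had 1 each.

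Among myeloid transcription factors, 9 of 15 had a member (60%, 35.7 to 80.2%), with a median of 6 DMSO regions. SPI1, which encodes PU.1, had 3. The member 8.41 kb downstream of its start site had a fold of 3.37 with Corin and 14.9 with ATRA+Corin, and the one at 13.8 kb had 4.35 and 8.55. CEBPA had 2 members, at 5.94 kb downstream and 37.5 kb upstream, with Corin folds of 3.88 and 3.49. GFI1 had 2, 17.1 and 20.3 kb downstream, both with a fold of 3.72 with Corin and 3.96 and 2.96 in the ATRA+Corin list. RUNX1 and MYB had 2 each. The count depends on weak peaks: when both −log10 q had to reach 5, 1 of 15 genes of this list had a member (6.67%), against 10.7% of all genes. With members of any strength, 10 of 15 had one by nearest start site (41.7 to 84.8%, all genes 21.0%). Within 10 kb it was 4 of 15 (10.9 to 52.0%, all genes 9.26%). These shares of all genes are not split by the number of DMSO regions.

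Inflammatory cytokine and chemokine genes gave the same share, 9 of 15 (60%), with a median of 7 DMSO regions. IL1B, CXCL8, IL10, CCR2, CXCR4 and OSM had 2 each. At CCR2, the receptor for the monocyte attractant CCL2, the nearer member was 24.6 kb downstream, with folds of 6.80 with Corin and 8.98 with ATRA+Corin. At IL10 the stronger of 2 members had 5.50 and 8.49. With both −log10 q at 5 or more, 3 of 15 genes had a member (7.05 to 45.2%, all genes 10.7%). By nearest start site 4 of 15 had one (10.9 to 52.0%, all genes 21.0%), and within 10 kb 2 of 15 (3.74 to 37.9%, all genes 9.26%). In each of these settings the interval held the share of all genes. Within 100 kb 11 of 15 had one (48.0 to 89.1%), above the 44.9% of all genes.

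The list of CoREST and LSD1 complex genes also holds EP300 and CREBBP, histone acetyltransferases that are not part of this complex. Of its 11 genes, 5 had a member (45.5%), among them CREBBP with 2 and KDM1A with 1. The KDM1A member lay 5.42 kb upstream, with a fold of 2.5 with Corin and 8.89 with ATRA+Corin. Of the retinoid response genes, 7 of 16 had one (43.8%), led by CRABP2, a cellular retinoic acid binding protein, with 3 members beside 9 DMSO regions. Its strongest member, 41.1 kb downstream, had folds of 6.88 and 6.06. By nearest start site 2 of 16 retinoid response genes had a member (3.50 to 36.0%, all genes 21.0%). Within 10 kb 0 of 16 had one (0 to 19.4%, all genes 9.26%), and within 100 kb 9 of 16 (33.2 to 76.9%, all genes 44.9%). Of neuronal genes with REST sites 4 of 15 had a member within 50 kb (26.7%), and the only one with 2 was CHRM4, a muscarinic receptor. Their share was near that of all genes.

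Granulocyte genes had a member in 4 of 15 cases (26.7%), leukaemia stem and progenitor genes in 2 of 10 (20%), erythroid, megakaryocyte and mast cell genes in 3 of 12 (25%) and lymphoid genes in 2 of 12 (16.7%). Within 50 kb all 4 shares were below that of all genes, which lay within each interval. By nearest start site 5 of 10 leukaemia stem and progenitor genes had a member (23.7 to 76.3%, all genes 21.0%). The granulocyte, erythroid and lymphoid lists then had 20, 8.33 and 16.7%. Because the gene lists are short their intervals are wide. In the 50-kb window only those of the monocyte and macrophage, myeloid transcription factor and cytokine lists lay wholly above 28.5%. All 3 include the 40.1% of genes with 6 to 9 DMSO regions. Regions of the ATRA and ATRA+Corin lists only were near 25, 46.7 and 33.3% of the genes of these 3 lists, against 14.5% of all genes. In the other lists that share ran from 8.33 to 26.7%. A share above that of all genes in these 3 lists is therefore not particular to members.

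**Figure D5:**
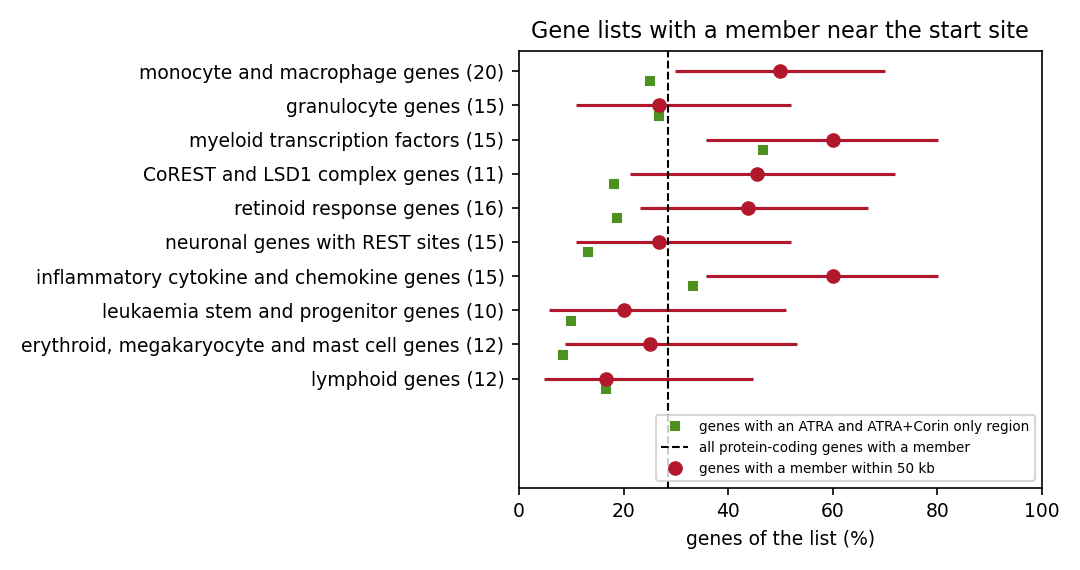
Share of genes in each list (%, number of genes in brackets) with at least 1 member within 50 kb of the start site (circles, 95% Wilson intervals) and with a region of the ATRA and ATRA+Corin lists only (squares, drawn just below the circles). The dashed line is the share of all protein-coding genes with a member, 28.5%. It does not apply to the squares, for which the share of all genes is 14.5%.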

How the data were processed

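The 4 H3K4me2 peak lists of U-937 cells, 1 for each treatment, were analysed, and samples were grouped by their titles and treatment labels. Trimmomatic, Bowtie2, Picard and MACS2 and the build hg38 are named in the submitters' processing notes; versions and settings are not given in the sources used here. The names of the deposited lists describe an overlap-reproducible optimal set against input, so peaks were used as pooled calls. Per peak, the deposited score is, in nearly all rows, the integer part of 10 times −log10 p, with a ceiling of 1000. The fold enrichment is a ratio over input that the authors' caller gave at the summit. The −log10 p and −log10 q are deposited values of the same caller; the lowest −log10 p was 2.02.

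Peaks on 23 chromosomes (1 to 22 and X) that overlapped or touched were merged. A region's values are those of its peak with the highest −log10 q. Annotation came from GENCODE release 44 on GRCh38, with 38726 protein-coding and lncRNA genes and 19959 canonical protein-coding start sites; sequences were read from the same build. Fragments were recovered from fold (pseudocount 1) and −log10 p within 0.001, for 99.99% of Corin and 99.78% of ATRA+Corin peaks. The steps were tested on simulated lists, motifs and fragments. Python 3.11.15, pandas 2.3.3, NumPy 2.4.6, SciPy 1.17.1 and pysam 0.24.0 were used. No test between treatments was possible.

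Named were the 20 members with the highest lower −log10 q of both lists, the 10 genes with the most members within 50 kb, listed genes with at least 2 members (up to 5 a list), and CD86, ITGAM, GFI1, KDM1A, SPI1, CEBPA and LYZ whatever their values. Members over start sites and OSM and FPR1 were named after their values were seen. Members on chromosome 8 were not considered for naming or for printed sequences. The members and the 10 gene lists were chosen with earlier results of these data known. The gene lists were monocyte and macrophage, granulocyte, myeloid transcription factor, CoREST and LSD1 complex, retinoid response, neuronal with REST sites, inflammatory cytokine and chemokine, leukaemia stem and progenitor, erythroid, megakaryocyte and mast cell, and lymphoid genes.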

Additional observations from a re-analysis of the deposited data

How the results depend on the processing

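The count of members depended most on the peak threshold. It was 3700 when peaks of all lists needed a −log10 q of at least 5, 1899 when this was asked of the Corin and ATRA+Corin peaks only, 3221 with the 65172 strongest peaks of each list and 3963 with peaks within 1 kb merged, against 6179. It stayed within 1.5 times at 7897 (Corin peaks with at least 50% under an ATRA+Corin peak), 4192 (DMSO and ATRA peaks over 1 kb away) and 5252 (equal depth). Equal depth acts on summits that were called and cannot add peaks; its p was recomputed on unscaled fragments, so it is read against 5786 at full depth, and a deposited −log10 p of at least 5 gave 4511. The share within 1 kb of a start site, 5.39%, was 13.8% within 2.5 kb, 4.09% for Corin summits and 6.16% for strong members (−log10 q from 5 up with both treatments). The share within 1 kb of a DMSO or ATRA region, 32.2%, was 26.9% for strong members. GFI1 matches were in 0.777% of 150-base, 1.86% of 300-base and 3.11% of 500-base windows, against 0.490, 0.929 and 1.61% of the regions of all lists; at 150 bases the members' interval (0.586 to 1.03%) lay above that of all lists (0.428 to 0.560%) and overlapped those of ATRA+Corin only (0.518 to 0.785%) and of ATRA and ATRA+Corin only (0.226 to 0.690%). Leaving out Alu-like matches gave 1.47%, the ATRA+Corin summit 1.84% and strong members 2.16%. AP-1 matches were in 5.26, 13 and 23.9% of these windows, in 14.3% at ATRA+Corin summits and in 14.5% of members over 1 kb from DMSO and ATRA peaks. Genes with a member were 28.5% within 50 kb, 9.26% within 10 kb, 44.9% within 100 kb, 10.7% for strong members and 21.0% by nearest start site. Of monocyte and macrophage genes, 4 of 20 (20%, 8.07 to 41.6%) had a strong member and 4 of 20 a member within 10 kb; at 100 kb the intervals of this list and of the myeloid transcription factors, from 43.3 and 41.7% up, held the 44.9% of all genes. Strong or distant members for motifs, the Alu continuation, the strength band and full depth were added after the data were examined. The lists give no replicate values, so no library could be left out. No paired analysis was possible because each list pools its libraries and its columns carry no replicate numbers.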

Other observations

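The gain of peaks across VNN2 stood beside a site with the opposite behaviour. At −85.2 to −84.1 kb from the VNN1 start site, where SLC18B1 lies, the DMSO list had a peak with a −log10 q of 126 and the ATRA list one of 273 that began at the same place, and the Corin and ATRA+Corin lists had no peak there. The member over the VNN2 start site lies between −44.4 and −43.4 kb. Whether the sites are linked was not tested.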
